A study of Mus musculus with 16 samples.

Results

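The genes of the proteins that build the cytosolic ribosome were followed in atria and ventricles of mouse hearts at day E15.5 of embryonic development. They were chosen by symbol: large subunit genes named Rpl with a number, small subunit genes named Rps with a number, the stalk genes Rplp0 to Rplp2, and Rpsa, leaving out names marked as pseudogenes and the Rps6k kinases. The rule found 84 of the 16118 listed genes, 49 of the large and 35 of the small subunit. By GENCODE M21 (build GRCm38), 81 of them are protein coding, while Rps3a2, Rps3a3 and Rps4l are annotated as processed pseudogenes, intronless copies of a spliced mRNA. All embryos carried floxed alleles of both copies of Meis1 and of Meis2, which encode homeobox transcription factors of the TALE class. The 4 double knockout (dKO) embryos carried 1 α-MHC-Cre transgene, a Cre recombinase driven by a myosin heavy chain promoter active in cardiomyocytes, and the 4 controls carried none, so Cre and deletion cannot be told apart. Each embryo gave an atrial and a ventricular library, so each of the 4 groups held 4 embryos.

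The titles start with a number that several embryos share and whose meaning is not given. Sets by that number are called A (605E2, dKO embryo 1), B (627E1 and 627E4, control embryos 1 and 2, with 627E2 and 627E5, dKO embryos 2 and 3) and C (648E10 and 648E3, control embryos 3 and 4, with 648E9, dKO embryo 4). The protocol in turn speaks of 4 litters with a control and a dKO each. Libraries held 7.88 to 23.0 megareads on listed genes, and the deepest dKO ventricle library held 14.3 megareads against 15.6 in the shallowest control ventricle library. In atria Meis1 was at 26.1 ± 3.19 CPM (counts per megaread, as deposited) with the deletion and at 40.4 ± 2.61 CPM without it (SD, n = 4; two-sided exact permutation p = 0.0286, the smallest that 4 against 4 allows), but 40.9 ± 2.41 and 41.5 ± 3.96 CPM in ventricles (exact permutation p = 0.80). Meis2 was at 23.4 ± 2.85 against 39.2 ± 3.46 CPM in ventricles (exact permutation p = 0.0286) and 26.5 ± 1.90 against 25.4 ± 2.05 CPM in atria (exact permutation p = 0.486). Reads were counted over whole genes, so transcripts without the floxed exons would still count. Summed CPM of 4 ventricular markers was 66.5 to 178 in atria and 5467 to 7353 in ventricles, which sets the chambers apart as labelled.

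A ribosome joins a small subunit, which reads the mRNA, to a large subunit, which forms the peptide bonds. Each ribosomal protein is usually present once per ribosome, apart from the stalk proteins, and the genes are among the most active of any growing cell. Their mRNAs start with a run of pyrimidines, the 5′ terminal oligopyrimidine (TOP) tract, through which mTOR and LARP1 control their translation. Mammalian genomes hold many processed pseudogenes of these genes, and a read of a spliced mRNA can match a pseudogene as well as its parent gene. RSEM, the tool named in the submitters' processing notes, divides such reads by estimated abundance.

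The sequences behind several of the results below come from pairs that differ by few bases. For 4 parent genes, the stretch of 60 coding bases (the length of 1 read) with the most differing bases is shown against the copies, 5′ to 3′ on the coding strand and with each varying base in capitals. All were read from GENCODE M21 transcripts on build GRCm38.
Rplp0: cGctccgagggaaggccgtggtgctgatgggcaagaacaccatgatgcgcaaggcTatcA
Gm8730: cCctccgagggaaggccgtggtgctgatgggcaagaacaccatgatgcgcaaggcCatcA
Gm9625: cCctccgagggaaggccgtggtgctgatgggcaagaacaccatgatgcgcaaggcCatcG
Rps3a1: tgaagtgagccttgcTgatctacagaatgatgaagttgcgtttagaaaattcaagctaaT
Rps3a2: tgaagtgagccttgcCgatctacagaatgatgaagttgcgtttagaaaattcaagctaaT
Rps3a3: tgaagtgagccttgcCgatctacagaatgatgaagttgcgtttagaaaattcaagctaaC
Rpl3: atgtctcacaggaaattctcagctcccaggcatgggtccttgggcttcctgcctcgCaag
Rpl3-ps1: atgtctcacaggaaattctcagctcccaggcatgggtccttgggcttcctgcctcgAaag
Rps7: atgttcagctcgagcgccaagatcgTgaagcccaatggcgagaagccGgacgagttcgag
Gm6472: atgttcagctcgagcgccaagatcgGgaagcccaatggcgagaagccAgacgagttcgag

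Rplp0 lies on chromosome 5 (115559467 to 115563727, plus strand), and its copies Gm8730 on chromosome 8 (102864845 to 102865798, minus) and Gm9625 on chromosome 13 (67810246 to 67811200, plus). The coding sequence of Rplp0 without its stop codon has 951 bases, of which 12 differ in Gm8730 and 24 in Gm9625. Rps3a1 lies on chromosome 3 (86137940 to 86142702, minus), Rps3a2 on chromosome 14 (88123017 to 88123808, minus) and Rps3a3 on chromosome 13 (108670603 to 108671397, plus). Of the 792 coding bases of Rps3a1, 4 differ in Rps3a2 and 8 in Rps3a3. Rpl3 on chromosome 15 (80077791 to 80091868, minus) and Rpl3-ps1 on chromosome X (13202571 to 13203780, plus) differ at 2 of 1209 coding bases. Rps7 on chromosome 12 (28630854 to 28635953, minus) and Gm6472 on chromosome X (152909505 to 152910155, minus) differ at 3 of 582.

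Ribosomal protein genes took 2.73% to 3.70% of the listed reads. In control atria the shares were 3.05%, 3.05%, 3.25% and 3.25% in embryos 1 to 4, and in dKO atria 2.87%, 2.73%, 3.05% and 3.70%. In control ventricles they were 3.13%, 3.06%, 3.08% and 3.13%, and in dKO ventricles 2.83%, 3.08%, 3.07% and 3.05%. The atrium of dKO embryo 4 stood above every other library, and dKO embryo 1, the only one of set A, was low in both chambers. The means were 3.15% ± 0.113 in control atria, 3.09% ± 0.429 in dKO atria, 3.10% ± 0.0359 in control ventricles and 3.01% ± 0.117 in dKO ventricles (SD, n = 4 each), so the means differed by less than the spread of dKO atria. The ratio of large to small subunit CPM was 1.305 ± 0.0154 in control atria, 1.3002 ± 0.0312 in dKO atria, 1.31 ± 0.0256 in control ventricles and 1.33 ± 0.0372 in dKO ventricles. In these bulk samples, fewer cells of a type and less RNA per cell cannot be told apart.

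**Figure D1:**
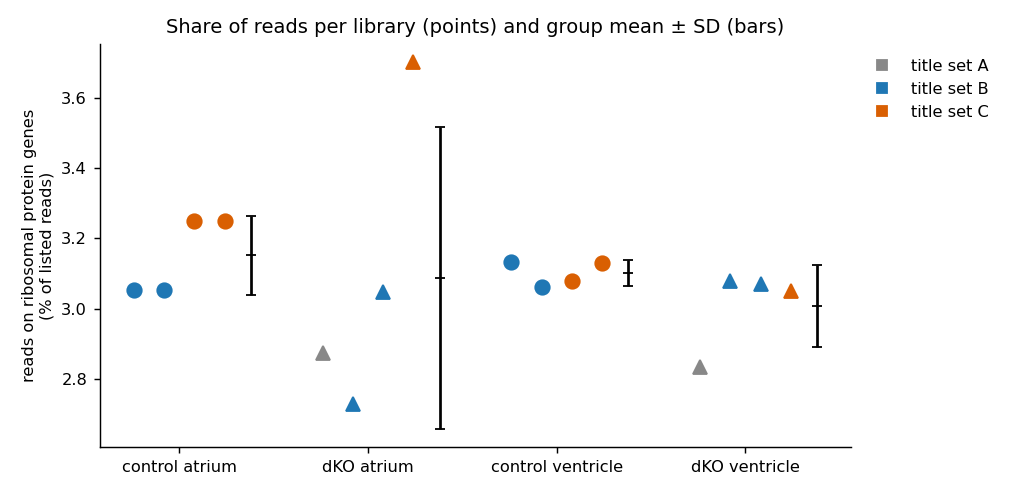
Percent of listed reads on the 84 ribosomal protein genes (vertical axis, not starting at 0) in each of 16 libraries, by group, coloured by title set; black bars are group mean ± SD (n = 4). The dKO atria spread from 2.73% to 3.70%, while the control ventricles lie within 3.06% to 3.13%.

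Compared per length, as CPM per kilobase of the median annotated transcript, the members had a median of 423, with quartiles of 191 and 549. The 5 highest were Rpl13a (1278), a large subunit protein known in human cells from the GAIT complex, Rplp1 (1208), an acidic stalk protein, Rps24 (988), Rplp0 (951), which anchors the stalk, and Rpl41 (845), the smallest ribosomal protein. The 5 lowest were Rpl27 (44.3), Rps3a3 (40.2), Rpl5 (23.3), which brings 5S rRNA into the large subunit, Rpl12 (18.6), which sits at the base of the stalk, and Rpl3l (0.786), the striated muscle paralog of Rpl3. The order depends on the transcript length taken. With the longest transcript, Rpl13a had 604 CPM per kilobase and rank 10, and Rps24 had 322 and rank 41.

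Several of the lowest levels belonged to genes with a listed near-identical copy. A copy was counted where a listed gene on the sense strand shared at least 5% of its own 60-base words with the member (20% where it is not annotated as a pseudogene). By this rule 49 members had 61 listed copies, 53 of them annotated as pseudogenes, and 18 copies averaged over 100 CPM. Rpl5 averaged 33.6 CPM, while its copy Gm15500, of whose 60-base words 100% occur in Rpl5, averaged 647 CPM. Rpl12 averaged 23.1 CPM against 371 CPM for Gm10275, and Rps12, a small subunit protein, 28.8 CPM against 346 CPM for Rps12-ps3. In all, 8 members lay below the sum of their copies, and Rpl11, Rpl27, Rpl27a, Rpl35 and Rps23 were the others.

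**Figure D2:**
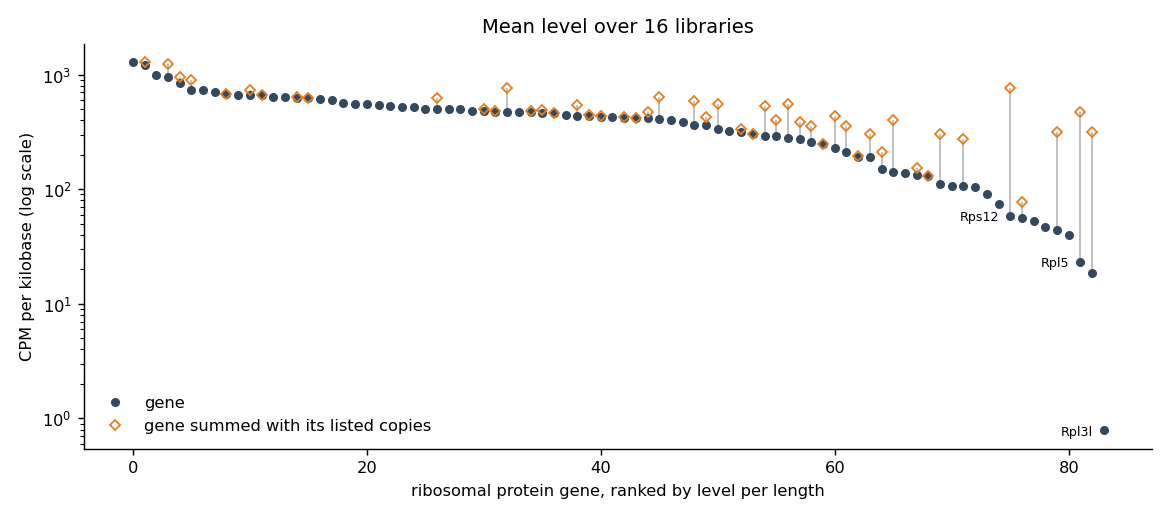
Mean CPM per kilobase of median transcript length over 16 libraries (log scale) for the 84 genes ranked by level, with open diamonds for a gene summed with its listed copies. With copies added, Rpl5 moves from 23.3 to 473 and Rps12 from 58.5 to 761, while Rpl3l stays at 0.786.

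Summing each gene with its copies raised the median to 481 CPM per kilobase and the lower quartile to 340. Of the members, 11 lay under 100 CPM per kilobase, against 5 of the sums. Rpl5 with its copy reached 473 and Rpl12 317, while Rpl3l, with 0 of its 60-base words shared, had no listed copy. The level of a single member was therefore in many cases the level of 1 of several near-identical sequences, and both the member's own values and the sums were followed. Exons of 12 members also overlap a listed gene on the opposite strand, Rpl5, Rpl12, Rpl15, Rpl18, Rpl28, Rpl35 and Rps28 among them. The use of strand is not given in the sources used here, so their values are uncertain.

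The study's main comparison asked what the loss of Meis1 and Meis2 changes in each chamber. No ribosomal protein gene passed the test. Of 83 members tested (Rpl3l fell under the mean of 1 CPM asked of a gene), 0 were called in dKO atria by limma at an adjusted p under 0.05, and 2 (2.41%) had an unadjusted p under 0.05. Over all 13950 genes tested, 7.47% were called in atria and 20.3% had an unadjusted p under 0.05. In ventricles 0 members were called, beside 2.0% of all genes, and 13 members (15.7%) had an unadjusted p under 0.05, beside 12.8% of all genes. edgeR and DESeq2 also called 0 members in both chambers. On the log2(CPM + 1) scale the median difference of the members, dKO minus control, was -0.04 in atria and -0.07 in ventricles, against a median over all genes of -0.00 and -0.02.

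The estimates were tight for most members. The median standard error of a log2 difference was 0.09 in atria and 0.06 in ventricles. In each chamber the estimate ± 2 SE stayed within ±0.5 for 79 of 83 members, and it stayed within ±0.25 for 47 in atria and 67 in ventricles. The difference between the chambers in the dKO effect was called for 0 members by limma, edgeR and DESeq2, with 0 at an unadjusted p under 0.05, beside 2.64% of all genes called and 13.4% at that unadjusted p. Among the smallest p-values were, by limma, those of Rps4l (ventricular minus atrial log2 effect -0.16, adjusted p = 0.608) and Rpl12 (-0.17, adjusted p = 0.647).

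**Figure D3:**
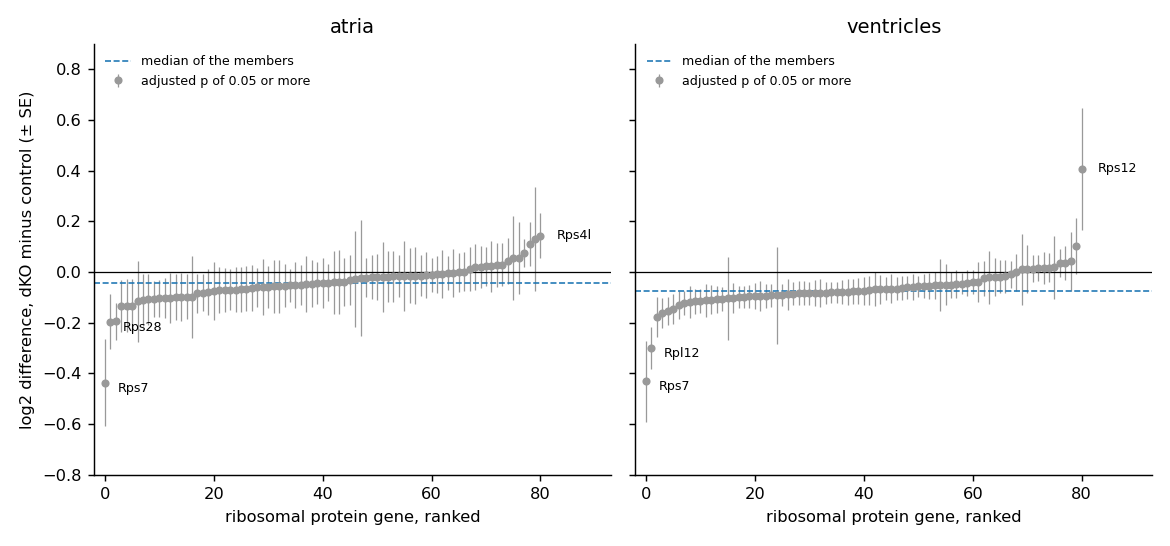
Log2 difference (dKO minus control, on log2(CPM + 1)) of the ribosomal protein genes in atria (left) and ventricles (right), ranked within each chamber, with bars of 1 SE; Rps3a2 and Rps3a3, with SE above 1, are left out. No gene passes the test, and Rps7 is lowest in both chambers.

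The members with the smallest p-values in atria were Rps2, Rps7 and Rps28, all of the small subunit. Rps2, a protein of the mRNA entry site, measured 189, 185, 203 and 204 CPM in control and 153, 162, 177 and 192 CPM in dKO atria (log2 -0.19 ± 0.07 SE, limma adjusted p = 0.149). The groups overlapped through dKO embryo 4 alone. In ventricles Rps2 measured 210, 213, 215 and 228 CPM in control and 170, 202, 199 and 204 CPM in dKO libraries (-0.16 ± 0.06, adjusted p = 0.246), and here the groups did not overlap. Rps28 measured 169, 160, 170 and 179 CPM in control and 124, 134, 154 and 187 CPM in dKO atria (-0.20 ± 0.11, adjusted p = 0.353), with dKO embryo 4 above all controls and the other dKO embryos below them. Rps28 overlaps a listed gene on the opposite strand.

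Rps7 had the lowest estimate in both chambers. It measured 300.0, 387, 389 and 417 CPM in control and 187, 275, 305 and 357 CPM in dKO atria (log2 -0.44 ± 0.17 SE, limma adjusted p = 0.171). In ventricles it measured 282, 396, 389 and 399 CPM in control and 183, 327, 286 and 306 CPM in dKO libraries (-0.43 ± 0.16, adjusted p = 0.263). The groups overlapped in both chambers, with control embryo 1 inside the dKO range. The copy Gm6472 ran the other way, at 218, 114, 111 and 126 CPM in control and 306, 208, 206 and 254 CPM in dKO atria. The sum of both differed by 0.02 in atria (adjusted p = 0.927) and by -0.06 in ventricles (adjusted p = 0.664).

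In ventricles the smallest p-value was that of Rpl12, which measured 26.4, 24.3, 24.4 and 27.4 CPM in control and 20.0, 18.4, 23.3 and 20.98 CPM in dKO libraries. The groups did not overlap (log2 -0.30 ± 0.08 SE, limma adjusted p = 0.107). With its copy Gm10275 the difference was -0.14 (adjusted p = 0.288). Rps27l, a paralog of Rps27 known as a p53 target, was at 55.7 ± 3.83 CPM in dKO ventricles against 62.0 ± 2.03 CPM in controls (SD, n = 4; -0.15 ± 0.06, adjusted p = 0.251).

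The paralog and stalk genes gave no call in either chamber. In atria the log2 difference of Rplp1 was -0.11 and that of Rplp2, its stalk partner, -0.10, and in ventricles they were -0.14 and -0.12 (limma adjusted p between 0.278 and 0.631). Rpsa, which is also known as a laminin receptor, differed by -0.06 in atria and -0.10 in ventricles. Rpl22l1 and Rpl22, known in mice as a pair that cross-regulates, differed by -0.11 and -0.05 in atria and by -0.12 and -0.04 in ventricles. Rpl7l1 and Rpl7 stayed between -0.08 and 0.07, and Rps4l and Rps4x between -0.06 and 0.14. The striated muscle gene Rpl3l was at 0.418 to 1.28 CPM in atria and 0.595 to 1.39 CPM in ventricles, with all groups overlapping. It was low but above the 0.110 to 0.312 CPM that 3 reads were worth, while Rpl3 lay at 453 to 786 CPM.

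1 library weighed on the atrial comparison. The median member of dKO atrium 4 lay 0.28 above the mean of its group on the log2 scale, that of dKO atrium 2 lay 0.16 and that of dKO atrium 1 0.12 below it (-0.16 and -0.12). Without dKO atrium 4 the median difference in atria was -0.14, and 6 members were lower in dKO atria (Rpl10a, Rpl35a, Rps2, Rps26, Rps28 and Rps7), beside 3.92% of all genes lower in that fit. Without dKO atrium 1 the median was 0.00 and without dKO atrium 2 it was 0.01, both with 0 called. Among embryos of set B alone, 2 against 2, the median difference was -0.09 in atria and -0.02 in ventricles, again with 0 called.

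Other lists of ribosome supply had no called gene in either dKO comparison, except the mitochondrial ribosomal proteins in atria. Of the 4 tested ribosomal proteins outside the symbol rule, Fau and Rack1 among them, 0 were called in either chamber. Of 19 translation factors with TOP mRNAs, 39 ribosome assembly factors, 15 RNA polymerase I genes and 17 genes of mTOR and TOP control, 0 were called in atria or in ventricles, with medians from -0.08 to -0.00. Of 14 p53 targets, which respond to stalled ribosome assembly, 0 were called (median 0.04 in both chambers). Of 79 mitochondrial ribosomal protein genes, which serve the separate ribosome of mitochondria, 0 rose and 4 fell in dKO atria (median -0.08), and 0 were called in ventricles. Over all genes 7.47% were called in atria and 2.0% in ventricles, either way. As calls either way, the 4 of 79 are thus no excess, and 0 calls in the shorter lists say little at such shares. The 4 were not set against the share of all genes that fell.

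More members were called between chambers than between genotypes, but the median log2 differences were small in both. They were 0.08 and 0.06 between chambers (control and dKO embryos), and -0.04 and -0.07 between genotypes (atria and ventricles). By limma 19 and 13 members had an unadjusted p under 0.05 between chambers, against 2 and 13 between genotypes. The calls come from different fits with different shares of all genes called, so their counts do not rank chamber against genotype. Of 83 members, 12 were higher in ventricles than in atria of control embryos and 0 were lower, by limma with embryo as a block. The 12 are 14.5% of the members, against 26.4% of all genes higher and 20.5% lower. The share turned with the form of the block. With embryo as a fixed block, the paired fit, 33 members (39.8%) were higher and 3 lower in control embryos, against 29.2% and 22.4% of all genes, and without dKO embryo 4 there were 21 higher (25.3%), against 27.7%. Whether more or fewer members than other genes differed between chambers was therefore not settled by these counts. The median difference of the members was 0.08 on the log2 scale, against 0.03 for all genes. Of the library size behind the CPM, members took on average 2.42% in control atria and 2.57% in control ventricles. In dKO atria and ventricles they took 2.37% and 2.45% of it. Of the listed reads they took 3.15% and 3.10% in control and 3.09% and 3.01% in dKO embryos. The direction of the small chamber difference in read share thus turned with the denominator. In dKO embryos 9 members were higher and 0 lower, beside 26.5% and 22.5% of all genes (median 0.06 against 0.03), and with the fixed block 6 were higher, beside 21.5%. Both genotypes called 7 members, which is 7 of the 12 in control and 7 of the 9 in dKO embryos. Rpl19, Rpl5, Rpl7a, Rpl7l1, Rps27l and Rps4l were among them.

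The largest of these differences were in members with low levels or in paralogs. Rpl5 measured 34.3, 27.3, 32.1 and 26.8 CPM in atria and 39.5, 40.4, 37.2 and 43.8 CPM in ventricles of control embryos 1 to 4 (log2 0.41 ± 0.08 SE, limma adjusted p = 0.000455). In dKO embryos the difference was 0.30 (adjusted p = 0.00514). The sum of Rpl5 and Gm15500 differed by 0.10 in control (adjusted p = 0.214) and 0.06 in dKO embryos (adjusted p = 0.495). Rpl5 is 4.93% of that sum. Of its 60-base words 84.9% occur in a transcript of another gene, and all words of Gm15500 occur in Rpl5. Reads of Rpl5 mRNA may therefore be counted under Gm15500, and whether Rpl5 alone or the sum reflects that mRNA was not tested. Rps4l, annotated as a transcribed processed pseudogene, measured 58.5, 55.4, 44.2 and 58.1 CPM in control atria and 79.8, 69.1, 63.7 and 72.2 CPM in control ventricles (0.40 ± 0.08, adjusted p = 0.000485).

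Rpl7l1, a paralog of Rpl7 with a role in ribosome assembly, measured 57.6, 61.4, 65.3 and 60.9 CPM in atria and 77.8, 73.7, 79.1 and 69.1 CPM in ventricles of control embryos. The chambers did not overlap (log2 0.28 ± 0.05 SE, limma adjusted p = 0.000112), nor did they in dKO embryos (0.20 ± 0.05, adjusted p = 0.00241). Rps27l measured 48.4, 50.6, 50.5 and 51.0 CPM in atria and 63.5, 60.2, 60.4 and 64.0 CPM in ventricles of control embryos (0.30 ± 0.07, adjusted p = 0.00119). Their relatives Rpl7 (0.12, adjusted p = 0.0526) and Rps27 (-0.04, adjusted p = 0.749) were not called. A difference between paralogs was not tested.

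Among the abundant members, the large subunit gene Rpl19 was at 382 ± 11.0 CPM in atria and 449 ± 8.44 CPM in ventricles of control embryos (SD, n = 4), a log2 difference of 0.23 ± 0.06 SE, and 0.19 in dKO embryos (limma adjusted p = 0.00492 and 0.0193). Rps15, Rpl8 and Rplp2 were higher by 0.23, 0.20 and 0.19 in control embryos (adjusted p 0.0110 to 0.0462), Rpl7a by 0.16 in control and 0.15 in dKO embryos (adjusted p = 0.0298 and 0.0355), and Rpl36 and Rps2 by 0.24 and 0.18 in dKO embryos (adjusted p = 0.0209 and 0.0235). Several of these calls were close to the threshold. Of 20 alternatives, Rplp2 lost its call in 12, among them edgeR, DESeq2, TMM scaling, the fit with no embryo block and every fit without 1 control embryo. Rpl8 lost it in 5 and Rps15 in 4, and in dKO embryos Rpl7a lost it in 9, Rpl19 and Rps2 in 5 each and Rpl36 and Rps4l in 4 each. Under quantile normalization the direction of the set turned, to 4 higher and 9 lower in control embryos (24.2% and 21.2% of all genes) and 4 higher and 8 lower in dKO embryos (25.7% and 21.7%), and the median of the members became -0.07 and -0.05. Rpl5, Rpl7l1 and Rps27l stayed higher in both genotypes under it. edgeR called 6 in control and 5 in dKO embryos, all higher, beside 21.4% and 22.5% of all genes, and DESeq2 8 and 7, all higher, beside 22.1% and 22.5%. Without dKO embryo 4, 29 members were higher in dKO ventricles than atria, beside 24.8% of all genes, and without dKO embryo 2 3 were higher and 2 lower, beside 23.9% and 19.8%.

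**Figure D4:**
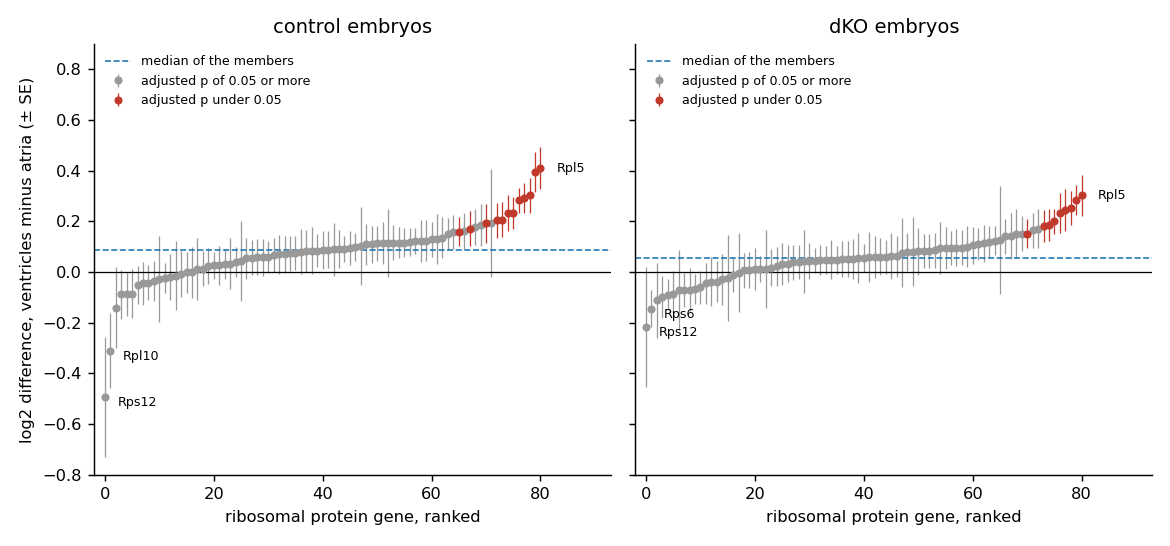
Log2 difference between chambers (ventricles minus atria, on log2(CPM + 1)) of the ribosomal protein genes in control (left) and dKO embryos (right), ranked within each panel, with bars of 1 SE and called genes in red; Rps3a2 and Rps3a3 are left out. All called genes, 12 and 9, lie above 0, the highest being Rpl5 at 0.41 and 0.30.

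The other lists of ribosome supply differed in the size of their chamber difference, against a median of 0.08 for the members. The counts stand beside 26.4% of all genes higher and 20.5% lower in ventricles of control embryos, with a median of 0.03. Of 79 mitochondrial ribosomal protein genes, 56 were higher and 1 lower in ventricles of control embryos (median 0.30), and of 39 assembly factors 23 were higher and 0 lower (median 0.23), among them the helicase Ddx21 (0.48) and the 60S assembly factor Bop1 (0.45). Of 19 translation factors with TOP mRNAs 12 were higher and 1 lower (median 0.17), with Naca at 0.49. Of 15 RNA polymerase I genes 5 were higher and 3 lower (median 0.11), near the shares over all genes. Of 17 genes of mTOR and TOP control 8 were higher and 0 lower, with a median of 0.08, among them Mycn, a driver of growth genes, higher by 1.61. Of 11 snoRNA host genes 0 were higher and 3 lower (median -0.17), including the TOP gene Gas5 (-0.30). The 4 tested ribosomal proteins outside the rule had a median of 0.09, and Fau and Rack1 among them were not called. Beside these, 6 of 6 cycling markers were higher in ventricles (summed CPM 598 to 712 in control atria and 991 to 1090 in control ventricles), and 12 of 13 mitochondrially encoded genes were higher. Epicardial markers ran the other way, with summed CPM of 263 to 329 in control atria and 58.4 to 79.7 in control ventricles. So did fibroblast markers (5339 to 7158 against 4088 to 4680) and endothelial markers (828 to 838 against 755 to 776). Summed cardiomyocyte markers and neural and glial markers were also lower in control ventricles without overlap. Smooth muscle markers were higher there (679 to 808 against 1412 to 1789). The part of these cell types in the chamber differences was not tested.

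The widest differences between embryos ran with the title set or with single embryos. Rplp0 was the only member called between sets C and B in either chamber (limma with genotype as a covariate), beside 0.136% of all genes higher in atria and 0.165% in ventricles. In atria of set B Rplp0 measured 603, 574, 550.2 and 583 CPM, in atria of set C 1007, 909 and 918 CPM, and in the atrium of set A 1007 CPM. In ventricles it measured 701, 672, 648.4 and 653 CPM in set B, 1179, 980.5 and 938 CPM in set C and 1064 CPM in set A. The libraries of set B lay below all others in both chambers (log2 0.70 ± 0.06 SE in atria, adjusted p = 0.00091, and 0.60 ± 0.06 in ventricles, adjusted p = 0.0012).

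The copies of Rplp0 ran opposite to it. Gm8730 measured 283, 283, 281 and 297 CPM in atria of set B, 0.839, 176 and 183 CPM in those of set C and 0.0272 CPM in that of set A, a value that stands for 0 reads. Control embryo 3 and dKO embryo 1 thus had next to no Gm8730 in either chamber, control embryo 4 and dKO embryo 4 had an intermediate level, and the 4 embryos of set B had the highest. Gm9625 and Gm14165 had the same order of sets. Summed with these copies, Rplp0 spanned 915 to 1200 CPM over the 16 libraries, and the difference between sets C and B was 0.21 in atria (limma adjusted p = 0.195) and 0.09 in ventricles (adjusted p = 0.565), with 0 sums called in either chamber.

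Rps3a1, a small subunit protein at the mRNA exit, and its copies showed an even sharper pattern. Rps3a2 measured 142 and 142 CPM in atria and 152 and 152 CPM in ventricles of control embryo 3 and dKO embryo 4, and at most 0.364 CPM in the other 12 libraries, where 3 reads were worth 0.110 to 0.312 CPM. Rps3a3 measured 133 and 136 CPM in atria and 126 and 115 CPM in ventricles of the same embryos and at most 0.339 CPM elsewhere. Rps3a1 itself measured 461 and 520.4 CPM in the atria and 483 and 448 CPM in the ventricles of these embryos, and 617 to 768 CPM in the other libraries. The sum of the 3 spanned 618 to 799 CPM. Both embryos belong to set C, but control embryo 4, also of set C, had 0.317 CPM of Rps3a2 in its atrium, so the pattern followed single embryos. Between sets C and B in ventricles limma did not call Rps3a2 and Rps3a3 (adjusted p = 0.196 and 0.207), while DESeq2 did (adjusted p = 0.0256 and 0.0169), as did limma without control ventricle 4.

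Rpl3, which lies near the peptidyl transferase centre, split along other embryos. Rpl3-ps1 measured at most 1.53 CPM in both chambers of control embryo 1, dKO embryo 1 and dKO embryo 3, and 180 to 238 CPM in the other 5 embryos. Rpl3 measured 668 to 786 CPM in the former and 453 to 590.2 CPM in the latter, with no overlap in either chamber. Their sum spanned 632 to 797 CPM. The groups of embryos that lacked Gm8730, Rps3a2 or Rpl3-ps1 were thus different ones, each with both genotypes. Rps7 gave a graded form, lowest in both chambers of dKO embryo 1 (187 and 183 CPM), where Gm6472 was highest (306 and 292 CPM). Rpl34, a large subunit protein, was highest in the atria of dKO embryo 4 and control embryo 3 (206 and 172 CPM), where Rpl34-ps1 was lowest (66.4 and 53.5 CPM, against 88.3 CPM or more in other atria).

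**Figure D5:**
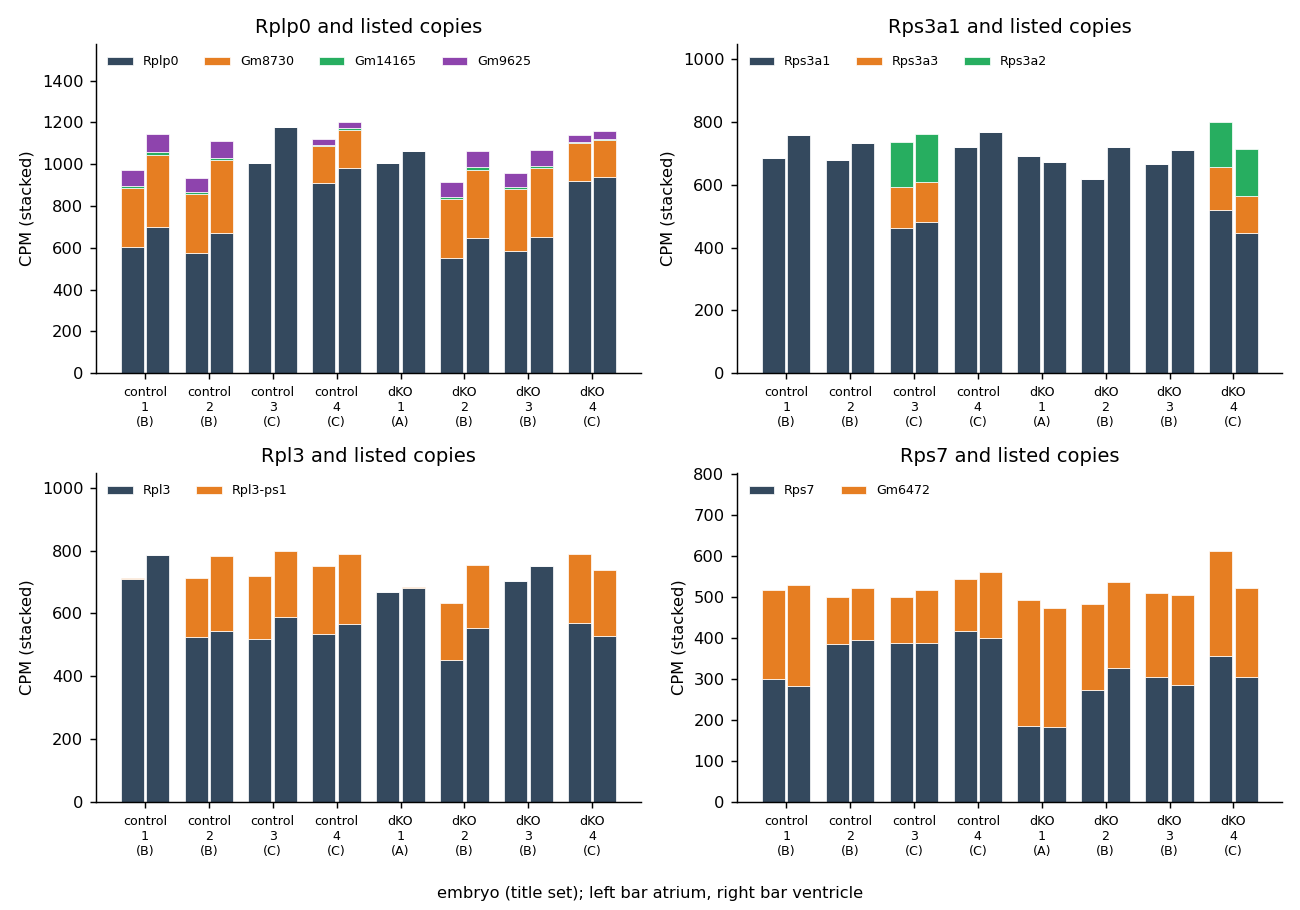
CPM of Rplp0, Rps3a1, Rpl3 and Rps7 (dark) stacked with their listed copies, for 8 embryos, left bar atrium and right bar ventricle, with title sets in brackets. The dark parts step between embryos, as in Rplp0 at 550.2 to 1179 CPM, while the full height of the Rplp0 stack stays within 915 to 1200 CPM.

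Over all members, the spread between embryos was measured as the range of the 8 embryos' deviations from their group means, averaged over both chambers. It exceeded 0.5 on the log2 scale in 13 members, of which 10 had a listed copy: Rps12, Rps7, Rplp0, Rpl11, Rpl34, Rps3a1, Rpl3, Rpl39, Rpl29 and Rpl27. The others were Rps3a2, Rps3a3 and Rpl3l. Of 82 sums with copies it exceeded 0.5 in 1, that of Rpl3l. The median range was 0.29 for members and 0.24 for sums, and 40 of the 49 members with a copy had a wider range alone than summed. Since a sum of opposed values narrows by construction, this is a description of how the reads were divided.

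Beside these splits the members as a group lay above set B in atria of set C. Of 83 members, 78 had a positive difference (median 0.18, against -0.00 for all genes), and 55 had an unadjusted p under 0.05, as did 15.8% of all genes. DESeq2 called 11 members, all higher, beside 0.832% of all genes. In ventricles the median was -0.02, with 10 of 83 members at an unadjusted p under 0.05, beside 9.38% of all genes, and 3 called by DESeq2, beside 0.444% of all genes. The read shares show the same: 3.25%, 3.25% and 3.70% in atria of set C against 2.73% to 3.05% in set B, and 3.05% to 3.13% against 3.06% to 3.13% in ventricles. Among control embryos alone the atrial median was 0.06, as it was without dKO atrium 4, which leaves only controls in set C. Over 2534 tested genes with a median transcript under 1000 bases that are neither members nor copies the atrial median was 0.05. The 4 neural and glial markers, with 0 called, had a median of 0.55 and summed CPM of 14.4 to 39.3 in atria of set C against 10.5 to 19.7 in set B. The part of transcript length and of such cells was not tested.

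Rpl10 and Rpl34 came closest to a call in atria after Rplp0. Rpl10, which completes the large subunit late in assembly, measured 337, 340.4, 276 and 327 CPM in atria of set B, 407, 420.2 and 515 CPM in those of set C and 321 CPM in that of set A (log2 0.48 ± 0.10 SE, limma adjusted p = 0.0795). In ventricles dKO embryo 2 had the highest Rpl10 (409 CPM), so the embryos were ordered differently there. Its copy Rpl10-ps3 was lowest where Rpl10 was highest in both chambers, at 113 CPM in dKO atrium 4 and 143 CPM in dKO ventricle 2. Rpl34 differed by 0.54 ± 0.12 in atria (adjusted p = 0.0966).

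Genes outside the set that varied most like it were ranked by Pearson's correlation over 16 libraries, after subtracting group means, with the mean log2 level of the tested members. Both chambers of an embryo, the library depth and the scaling are shared by these points, so the coefficients are descriptions. Only genes with an ordinary symbol were named, so others may rank among or above them. The 10 highest of these were Myl6 (0.98), Atp6v1g1 (0.96), Hmgn1 (0.93), Gstm5 (0.90), U2af2 (0.88), Ap3b2 (0.88), Marcksl1 (0.87), Snrpg (0.87), Gdi2 (0.87) and Acat2 (0.87). In that mean Rps3a2 and Rps3a3 carry the widest swings. With the median in place of the mean the 10 highest with an ordinary symbol included Sem1 (0.94), Usf2 (0.93), Ndufv3 (0.93), Eef1b2 (0.92) and Rack1 (0.92). Both lists of 10 shared 1 gene, Hmgn1. Rack1 is a ribosomal protein outside the symbol rule, and Eef1b2 is a translation elongation factor with a TOP mRNA.

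RefSeq promoters (GRCm38.p6, 250 bases before to 50 after the annotated start) were held for 61 of the 84 members, in 73 entries. The ETS core CCGGAAG, bound by GABPA, was found on either strand in 35.6% of these and in 8.86% of all 32851 promoters. The YY1 core AAGATGGC was found in 11.0% against 2.75%, the SP1 box GGGCGG in 60.3% against 35.7% and the TATA box TATAAA in 9.59% against 13.6%. A run of at least 5 pyrimidines from the annotated start, similar to a TOP tract, was found in 21.9% against 4.44%. Runs that begin with T, such as that of Rpl27a below, were counted along with those that begin with C. Only a run that begins at the annotated start base was counted, and the median run was 0 bases in both. A start annotated a few bases off can hide a tract, so the share does not count the members that lack one. The 3 longest runs, in capitals, are shown with 40 bases before and 20 from the start.
Rpl27a: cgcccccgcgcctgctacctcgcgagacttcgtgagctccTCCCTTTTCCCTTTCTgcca
Rpl15: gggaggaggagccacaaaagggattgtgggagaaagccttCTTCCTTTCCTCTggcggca
Rpl35: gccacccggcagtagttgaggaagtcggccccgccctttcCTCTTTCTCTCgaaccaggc

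These stretches lie at chr7:109519155-109519214 on the plus strand, chr14:18270967-18271026 on the minus strand and chr2:39005112-39005171 on the minus strand. The runs have 16, 13 and 11 bases. Of the genes for factors that bind these motifs, Gabpa was higher in ventricles than atria of control embryos by 0.41 and Yy1 by 0.19. In that comparison 26.4% of all genes were called higher. The mean log2 level of the promoter factor genes was 5.25 in control atria and 5.36 in control ventricles. Of the 8, 0 were called between genotypes in either chamber, and a link to the motifs was not tested.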

How the data were processed

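RNA of 16 libraries from 8 embryos was read as single reads of 60 bases from 20 ng of total RNA, per the labels' protocols. The submitters' processing notes name cutadapt and RSEM 1.3.1. The deposited values are CPM. How they were scaled and filtered, which annotation was used and whether strand was used is not stated in the labels. Each CPM equals a whole read number plus 0.5 times a step per library (100% of values, tolerance 0.001), and these recovered reads gave depths and served edgeR 4.0.16 and DESeq2 1.42.0.

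The 13950 genes averaging 1 CPM or more were fitted on log2(CPM + 1) with limma 3.58.1 (R 4.3.3, mean-variance trend, two-sided), with Benjamini-Hochberg adjustment over all genes and calls at an adjusted p under 0.05; folds of genes near the pseudocount are understated. Chamber fits took embryo as a block (consensus correlation 0.108), since both chambers come from 1 animal. Replicate numbers do not pair genotypes. Scripts were tested on simulated data. Read counts cover counting error only. IDs of 16103 of 16118 genes and all 84 members matched GENCODE M21. The members and lists were chosen with earlier results of these data known. Named were, per comparison, called members (up to 10 each way) or the 3 smallest p-values, the paralogs, stalk genes and level extremes, and up to 3 called genes per list. All other genes named, the copies and the promoters shown among them, were chosen after their values were seen. Results of some genes are not reported here.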

Additional observations from a re-analysis of the deposited data

Results flagged for a closer look

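In groups of 4 libraries, a value was picked out where its gap to the nearest of the others took up more of the group's range than Dixon's 95% critical value for 4 samples allows. This was done for 33 named members and the read share in each of 4 groups, 136 groups in all, and picked out 23 values; chance picks out about 1 group in 20, and groups of 1 gene share embryos.

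The sharpest values were those of the Rps3a family. Rps3a2 stood out at 142 CPM in control atrium 3, 152 in control ventricle 3, 142 in dKO atrium 4 and 152 in dKO ventricle 4. Rps3a3 stood out at 133, 126, 136 and 115 CPM in the same libraries. Rps3a1 stood out on the low side at 461 CPM in control atrium 3 and 483 in control ventricle 3, where the other controls had 678 CPM or more. Control embryo 1 stood out for Rpl3 in the atrium (711 CPM, others 518 to 536), for Rps7 in the ventricle (282, others 389 to 399), for Rpl7 in the ventricle (596) and for Rps27l in the atrium (48.4).

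Atrium 4 of the dKO stood out on the high side for Rps15 (370 CPM, rounded from 369.9) and Rpl34 (206 CPM). Ventricle 1 of the dKO stood out on the low side for the read share of the members (2.83%, others 3.05% to 3.08%) and for Rps2 (170.2 CPM), Rpl8 (473), Rpl22 (197) and Rpl41 (381). Control atrium 4 was high for Rplp2 (232 CPM) and control ventricle 2 low for Rpl13a (625).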

How the results depend on the processing

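Alternatives were a pseudocount of 0.5 or 5, no filter or a mean of at least 5 CPM, TMM scaling with and without the members, quantile normalization, edgeR, DESeq2, title set as a covariate or set B alone, other forms of the embryo block, control embryos only or no genotype term between title sets, the longest transcript for levels, the library size behind the CPM for shares, and leaving out each library or embryo. Chosen after seeing the data were the sums with listed copies and the median in the likeness ranking. Counts of called members in the dKO comparisons stayed at 0 under all of these except the fits without dKO embryo 4 in atria and for the difference between chambers: leaving out 1 library gave 0 to 6 in atria and 0 in ventricles, and leaving out 1 embryo 0 to 1 for the difference between chambers. The 6 in atria were lower, beside 3.92% of all genes lower, and the 1 was higher, beside 1.35% of all genes higher. For the chamber difference the main counts were 12 in control and 9 in dKO embryos, all higher, beside 26.4% and 26.5% of all genes. Control gave 6 by edgeR, all higher, beside 21.4% of all genes higher. The replicate block as a fixed effect gave 36 (33 higher, 3 lower, beside 29.2% and 22.4% of all genes). No replicate block gave 10, all higher, beside 24.9%. Leaving out 1 embryo gave 6 to 22. The 6, all higher, came without control embryo 1 or 2, beside 22.0% and 22.5%. The 22 (21 higher, 1 lower, beside 27.7% and 21.4%) came without dKO embryo 4. dKO embryos gave 5 by edgeR, 6 with the fixed replicate block and 9 with no replicate block. All of these were higher, beside 22.5%, 21.5% and 25.1% of all genes. Leaving out 1 embryo gave 4 to 29. The 29, all higher, came without dKO embryo 4, beside 24.8%, and the 4, all higher, without dKO embryo 3, beside 22.6%. Without dKO embryo 2 there were 5 (3 higher, 2 lower, beside 23.9% and 19.8%). Between title sets C and B the count of 1 in atria became 11 by DESeq2 and 5 with both chambers in 1 fit. All were higher, beside 0.832% and 0.502% of all genes. Sums with copies gave 0, and leaving out 1 library gave 1 to 5. The 5 (4 higher, 1 lower, beside 0.265% and 0.466% of all genes) came without control atrium 4. In ventricles the count became 3 by DESeq2, all higher, beside 0.444% of all genes, and 0 for sums. Leaving out 1 library gave 1 to 5 there. The 5 (4 higher, 1 lower, beside 0.158% and 0.129% of all genes) came without control ventricle 4. Of named genes, Rplp2, Rpl8 and Rps15 in control and Rpl7a in dKO embryos lost their chamber call in 12, 5, 4 and 9 of 20 alternatives, and Rps7 in dKO atria reversed, to 0.0193 with its copy. Depths were 7.88 to 23.0 megareads. The cause of these changes was not tested.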
